A study of Mus musculus with 10 samples.

Results

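The opioid system of the nucleus accumbens was described through its 7 genes: the peptide precursor genes Penk, Pdyn and Pnoc and the receptor genes Oprm1, Oprd1, Oprk1 and Oprl1. They were taken as a list of symbols, the precursor and receptor genes of the opioid system, and all 7 of 7 were found among the 20483 genes of the deposited table. The lateral shell (n = 5 libraries) was compared with the medial shell (n = 5 libraries) of the nucleus accumbens, the ventral part of the striatum. All mice carried the wild-type genotype, and no treatment or transgene is named. The labels name no strain, age or sex. They do not say whether each library came from its own animal, so every p-value measures the spread between these libraries. A p-value is too small if libraries of the same region share an animal. If an animal gave a library of each region, the main comparison ignored that pairing. The RNA came from tissue pieces taken by Geo-seq, in which small areas of a section are cut out by laser and their RNA is amplified.

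Opioid peptides are cut from larger precursor proteins and released by neurons. Enkephalins come from proenkephalin (Penk) and act mainly at the delta and mu receptors, dynorphins come from prodynorphin (Pdyn) and act mainly at the kappa receptor, and nociceptin comes from pronociceptin (Pnoc) and acts at its own receptor, the product of Oprl1. All 4 receptors couple to inhibitory G proteins, which lower cyclic AMP, open potassium channels and close calcium channels. In the striatum, Penk is typical of spiny projection neurons that carry the dopamine receptor Drd2, and Pdyn of those that carry Drd1. The accumbens shell is well known as a place where opioids act on reward and aversion.

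The precursors differ in how many opioid peptides one transcript encodes. In the GENCODE M21 coding sequences, Penk (protein of 268 residues) held 7 copies of the opioid core Tyr-Gly-Gly-Phe, 6 of them followed by Met and 1 by Leu. Pdyn (248 residues) held 3 copies, all followed by Leu, and Pnoc (187 residues) held 1 copy of the nociceptin variant Phe-Gly-Gly-Phe. Each copy followed a pair of basic residues, the kind of site where precursor enzymes cut. The coding strand is printed from 5′ to 3′ for a choice of copies that differ in kind, with the 5 codons of the peptide start in capitals and the flanking codons in lower case. Penk, Pdyn and Pnoc are all on the minus strand of GRCm38.
Penk copy 3, Met-enkephalin, chr4:4134202-4134246: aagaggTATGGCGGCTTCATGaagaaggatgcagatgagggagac
Penk copy 6, Leu-enkephalin, chr4:4133917-4133961: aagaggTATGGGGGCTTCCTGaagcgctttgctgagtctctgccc
Penk copy 7, the last codons before the stop, chr4:4133842-4133868: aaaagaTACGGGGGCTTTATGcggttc
Pdyn copy 2, dynorphin A, chr2:129688106-129688150: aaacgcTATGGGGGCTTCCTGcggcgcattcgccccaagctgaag
Pdyn copy 3, dynorphin B, chr2:129688049-129688093: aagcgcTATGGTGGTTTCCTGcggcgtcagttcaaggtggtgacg
Pnoc copy 1, nociceptin, chr14:65404854-65404898: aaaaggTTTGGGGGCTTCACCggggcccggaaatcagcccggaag
Both Pdyn stretches share the 5 residues of Leu-enkephalin and differ further on, and the Pnoc stretch replaces the first Tyr by Phe.

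Levels are in TPM, reads per transcript length scaled to a total of 1000000 in each library. TPM keeps no depth, so the depth of each library is unknown and no counting interval can be given. Each library listed 15402 to 17003 genes above 0. A value of 0 is called listed at 0, because a 0 also occurred in 20 of 4272 genes whose mean level reached 20 TPM. The transcript AY036118 took 8.25% to 14.4% of the TPM in 8 libraries but was at 1.38 TPM in lateral replicate 5 and 1.42 TPM in medial replicate 2, so results were also computed without those 2 libraries. Differences were tested with limma on log2(TPM + 1) over the 15596 genes at 1 TPM or more in at least 5 libraries, and a gene passed at an adjusted p (Benjamini-Hochberg) under 0.05. Over those genes 60 passed as higher in lateral and 171 as higher in medial, which is 0.385% and 1.10%, or 1.48% in either direction. Median-ratio scaling gave 88 and 82, quantile normalization 86 and 100, and rescaling without mitochondrial genes 73 and 131. The median log2 fold change of all genes, lateral minus medial, was -0.21 as deposited, against -0.02 under median-ratio scaling, so each fold change is also to be read against that shift.

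None of the 6 opioid genes that could be tested passed in limma, 0 of 6 beside 1.48% of all genes. At an unadjusted limma p under 0.05 there was 1, Pdyn, against 15.4% of all genes, and the exact permutation tests on single genes gave none under 0.05. The values of the regions overlapped for each of the 6, whereas they did not overlap for 4.25% of all genes. Pnoc reached 1 TPM in 2 libraries and was therefore not tested by limma.

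Penk was the most abundant member and did not differ detectably between the regions. It stood at 1207, 2916, 3219, 2688 and 2715 TPM in lateral replicates 1 to 5 and at 1778, 2337, 1687, 3019 and 2618 TPM in medial replicates 1 to 5. Lateral replicate 1 was the lowest of all libraries, and the other lateral values overlapped the medial ones. The means were 2549 ± 779 TPM (SD, n = 5) in lateral and 2288 ± 563 TPM (SD, n = 5) in medial, rank 37 of the 20483 genes by mean level. The log2 fold change was 0.12 with a standard error of 0.26 (95% interval -0.45 to 0.68, limma adjusted p = 0.872). On the linear scale of TPM + 1 that interval runs from 0.73 to 1.61 times. Without lateral replicate 1 the log2 fold change was 0.37 (limma adjusted p = 0.437), and under quantile normalization it was -0.06.

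The low Penk library was also low in other genes of Drd2 neurons. In lateral replicate 1 Drd2 was at 47.1 TPM, against 115 to 204 TPM in the other lateral libraries, and Adora2a, the adenosine receptor gene of the same neurons, was at 61.7 TPM against 139 to 216 TPM. Drd1 was at 139 TPM there, inside the lateral range of 76.0 to 142 TPM. Tac1, a peptide precursor gene of Drd1 neurons, was at 546 TPM there, against 166 to 322 TPM in the other lateral libraries. The ratio of Drd1 to Drd2 was 2.95 in lateral replicate 1, against 0.638 to 1.11 in the other lateral libraries. The ratio of Penk to Drd2 in that library, 25.6, lay within the 14.3 to 27.1 of the lateral libraries. Medial ratios of Penk to Drd2 ran from 10.5 to 31.5, so the regions overlapped. The ratio of 10.5 was in medial replicate 1, where Penk was at 1778 TPM but Drd2 at 169 TPM, its highest medial value, and Adora2a at 179 TPM. Medial replicate 3, with the lowest medial Penk at 1687 TPM, was also the lowest medial library in Drd2 (53.5 TPM) and Adora2a (73.0 TPM). In these tissue pieces fewer cells of a type and less RNA per cell cannot be told apart.

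Pdyn was the member with the smallest p-value, with lower lateral values that did not pass. It stood at 435, 238, 136, 142 and 237 TPM in lateral replicates 1 to 5 and at 233, 421, 572, 327 and 794 TPM in medial replicates 1 to 5. In 4 of 5 lateral libraries Pdyn was at or under 238 TPM and in 4 of 5 medial libraries at or above 327 TPM, and the exceptions, replicate 1 of each region, made the groups overlap. The means were 238 ± 121 TPM (SD, n = 5) and 469 ± 220 TPM (SD, n = 5). The limma log2 fold change was -0.98 with a standard error of 0.35 (95% interval -1.74 to -0.22, unadjusted p = 0.0149). Its limma adjusted p was 0.205. Without the libraries low in AY036118 the log2 fold change was -1.02 (limma adjusted p = 0.391). Its exact two-sided permutation p was 0.0794, where 0.00794 is the smallest this design can give. By unadjusted p Pdyn was number 1131 of 15596 genes. Measured from the median of all genes, the log2 fold change was -0.78 as deposited and -0.75 under median-ratio scaling.

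Other genes typical of Drd1 neurons did not pass either. Drd1 averaged 118 ± 27.7 TPM (SD, n = 5) for lateral and 112 ± 27.5 TPM (SD, n = 5) for medial libraries. Tac1, the precursor gene of substance P, another peptide of these neurons, averaged 317 ± 141 TPM laterally against 540 ± 131 TPM medially, a log2 fold change of -0.84 (limma adjusted p = 0.151). Of the 5 tested genes of the Drd1 neuron list none passed, and the summed level of the list was 269 to 731 TPM laterally and 575 to 981 TPM medially. Its part in the Pdyn values was not tested. The ratio of Pdyn to Drd1, chosen after its values were seen, was 3.13, 1.68, 1.80, 1.37 and 1.86 in lateral replicates 1 to 5. In medial replicates 1 to 5 it was 2.01, 3.73, 6.71, 3.58 and 5.11. Those ratios overlapped through replicate 1 of each region, as the Pdyn levels did.

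**Figure D1:**
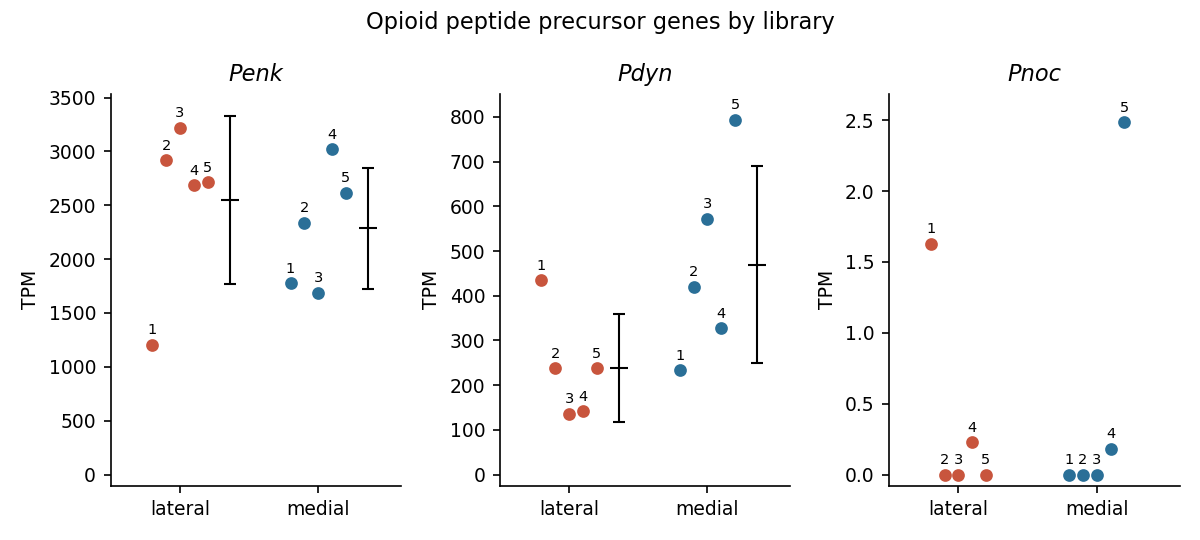
TPM of the 3 precursor genes in each library, with the replicate number above each point, in lateral (red) and medial (blue) shell; the bar beside the points is the mean ± SD of 5 libraries, left out for Pnoc, which is listed at 0 in 6 libraries. Lateral replicate 1 has the lowest Penk (1207 TPM) and the highest lateral Pdyn (435 TPM), and Pdyn values of the regions overlap.

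Since Penk and Pdyn come from the same library, their ratio does not depend on how that library was scaled. Penk was 2.77, 12.2, 23.6, 18.9 and 11.4 times Pdyn in lateral replicates 1 to 5 and 7.63, 5.56, 2.95, 9.23 and 3.30 times Pdyn in medial replicates 1 to 5. In 4 of 5 lateral libraries the ratio was above the highest medial value of 9.23, and in lateral replicate 1 it was below the lowest medial value of 2.95. Penk took 73.4% to 95.9% of the summed TPM of the 3 precursor genes in lateral and 74.7% to 90.2% in medial libraries. The summed TPM itself was 2787 ± 670 (SD, n = 5) laterally and 2757 ± 629 (SD, n = 5) medially.

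**Figure D2:**
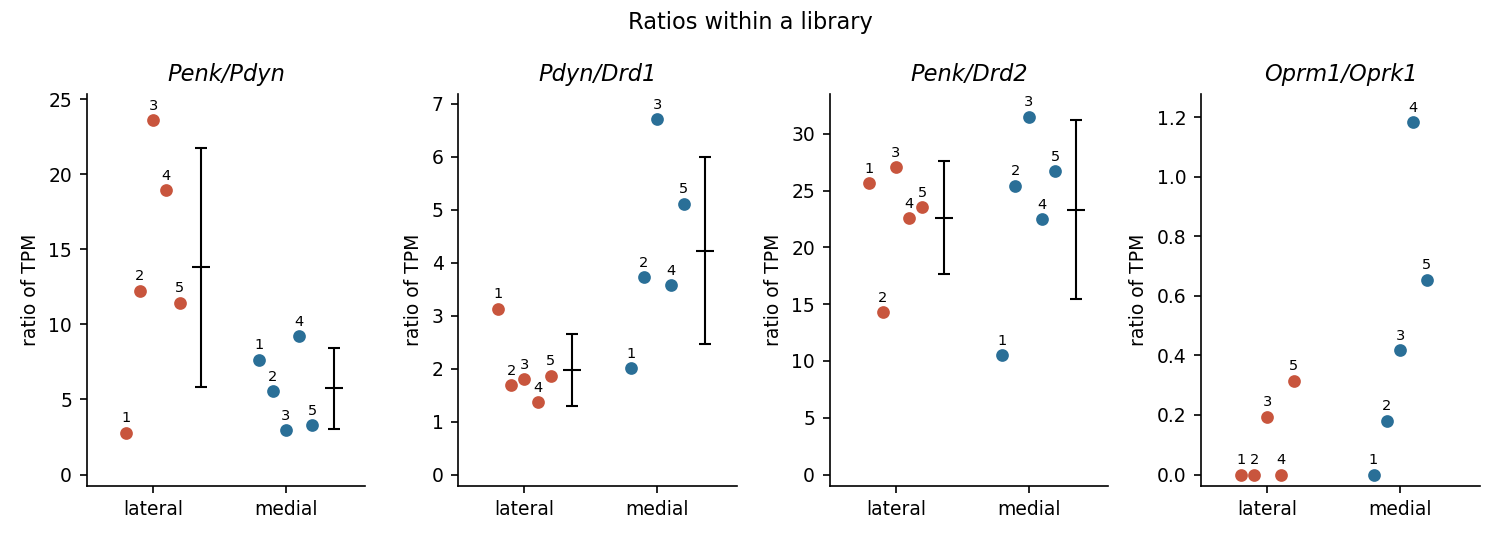
Ratios of TPM within each library, numbered by replicate, in lateral (red) and medial (blue) shell, with the mean ± SD of 5 libraries beside the points except for Oprm1 over Oprk1, which holds values of 0. The Penk to Pdyn ratio is 11.4 or more in lateral replicates 2 to 5 and at most 9.23 in medial, with lateral replicate 1 at 2.77.

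Pnoc was near the floor of the table in both regions. It was listed at 0 in 3 lateral and 3 medial libraries, at 1.63 and 0.229 TPM in lateral replicates 1 and 4, and at 0.183 and 2.49 TPM in medial replicates 4 and 5. The exact two-sided permutation test did not pass (p = 0.881). In the brain Pnoc is made in part by inhibitory neurons. The interneuron genes Sst and Npy were highest in lateral replicate 3, at 2577 and 2962 TPM, where Pnoc was listed at 0. In the libraries with the most Pnoc, lateral replicate 1 and medial replicate 5, Sst was at 1486 and 825 TPM. The other lateral libraries had 277 to 2577 TPM of Sst and the other medial libraries 0 to 109 TPM. The part of interneurons in the Pnoc values was not tested. The other opioid precursor gene, Pomc, from which beta-endorphin is cut, ranged from 0.538 to 7.60 TPM laterally and from 0.704 to 5.07 TPM medially. It is best known from the hypothalamus, and it did not pass here (log2 fold change -0.07, limma adjusted p = 0.965).

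The receptor genes lay far below Penk and Pdyn and followed the order Oprk1, Oprl1, Oprm1, Oprd1 by mean TPM over the 10 libraries. Those means were 24.1, 15.1, 7.08 and 6.32 TPM. Oprk1 exceeded Oprl1 in 8 of 10 libraries and Oprl1 exceeded Oprm1 in 9, with overlapping ranges in both cases. Oprm1 exceeded Oprd1 in 1 of 5 lateral and 4 of 5 medial libraries, so the order of these neighbours differed between the regions' libraries. By contrast Penk exceeded Pdyn, and Pdyn exceeded Oprk1, in every library with ranges that did not overlap. The receptors are close relatives: their annotated proteins were 54.8% to 61.0% identical over 344 to 373 aligned residues, and each pair with Oprl1 was at 55.8% or less.

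Oprk1, the receptor gene for dynorphin, had almost the same mean in both regions. It was at 18.9, 27.98, 20.3, 23.7 and 29.0 TPM in lateral replicates 1 to 5 and at 15.3, 26.6, 25.7, 13.7 and 40.0 TPM in medial replicates 1 to 5. The highest and the lowest library were both medial, and the lateral values lay between them. The means were 24.0 ± 4.48 TPM (SD, n = 5) and 24.2 ± 10.6 TPM (SD, n = 5). The log2 fold change was 0.07 (95% interval -0.53 to 0.67, limma adjusted p = 0.933), which is 0.692 to 1.59 times on the linear scale of TPM + 1. Of the summed receptor TPM, Oprk1 took 52.5% ± 9.79 (SD, n = 5) laterally and 41.6% ± 11.9 (SD, n = 5) medially.

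Oprm1, the mu receptor gene that binds enkephalins and morphine, had the widest difference among members and the widest interval. It was listed at 0 in lateral replicates 1, 2 and 4 and stood at 3.93 and 9.11 TPM in lateral replicates 3 and 5. In medial replicates 1 to 5 it was at 0, 4.80, 10.7, 16.2 and 26.1 TPM. The 3 highest libraries were medial, but a medial library was also at 0, so the groups overlapped. The log2 fold change was -1.86 with a standard error of 0.89 (95% interval -3.78 to 0.06, limma adjusted p = 0.343), and the exact two-sided permutation p was 0.111. Pseudocounts of 0.1 and 5 gave -3.18 and -1.002, and without medial replicate 1 the value was -2.61 (limma adjusted p = 0.105). Oprm1 could not be tested without the libraries low in AY036118, where it fell under the filter. In the full set it came through the filter with 6 libraries at 1 TPM or more, 4 of them medial. Its ratio to Oprk1 was at most 0.315 in lateral libraries and above that in medial replicates 3, 4 and 5, at 0.417, 1.18 and 0.654.

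Oprm1 and Penk overlap other genes. Oprm1 spans chromosome 10, 6758506 to 7038198, on the plus strand of GRCm38 with 31 annotated transcripts, against 1 to 11 for the other members. It overlaps the gene Gm10945 on the opposite strand over 3256 bases, of which 0 are exonic in both. It also overlaps the gene Ipcef1 on the opposite strand over 152403 bases, of which 96 are exonic in both, beside 8037 exonic bases of Oprm1. No source used here says whether counting used strand, so reads over those bases cannot be assigned to one gene. Ipcef1 was at 1.08 to 5.52 TPM in lateral libraries and at 0.534, 1.54, 12.9, 8.71 and 10.7 TPM in medial replicates 1 to 5, high in the same 3 medial libraries as Oprm1. Its part in the Oprm1 values was not tested. Penk overlaps the noncoding gene A830012C17Rik on the opposite strand by 499 bases, 233 of them exonic in both.

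In the dorsal striatum Oprm1 marks striosomes, compartments that differ from the surrounding matrix. Of the 8 striosome genes that are not opioid members, 2 passed as higher in medial (beside 1.10% of all genes) and none as higher in lateral, with a median log2 fold change of -0.48 beside -0.21 for all genes. The genes that passed were the imprinted gene Nnat (log2 fold change -2.24, limma adjusted p = 0.013) and Lypd1, a modulator of nicotinic receptors (-1.43, limma adjusted p = 0.013). Both lost their call without the libraries low in AY036118 (limma adjusted p = 0.0903 for each), with log2 fold changes of -2.24 and -1.41. Kremen1, another striosome gene, averaged 5.47 ± 2.76 TPM laterally against 2.57 ± 1.59 TPM medially (limma adjusted p = 0.431). Among the 8 striosome genes, 5 were lower in lateral, beside 68.7% of all tested genes. Of 5 matrix genes none passed, with 3 higher and 2 lower in lateral and a median log2 fold change of 0.43.

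Oprl1 encodes the nociceptin receptor, and its lateral values were not detectably lower. It was at 19.6, 10.01, 14.8, 16.4 and 2.52 TPM in lateral replicates 1 to 5 and at 13.6, 9.17, 22.02, 16.7 and 26.3 TPM in medial replicates 1 to 5. Lateral replicate 5 was the lowest of all, and the rest overlapped. The means were 12.6 ± 6.63 TPM (SD, n = 5) and 17.6 ± 6.76 TPM (SD, n = 5), a log2 fold change of -0.59 (95% interval -1.54 to 0.37, limma adjusted p = 0.569). Without lateral replicate 5 it was -0.15, and without both libraries low in AY036118 it was -0.35 (limma adjusted p = 0.674).

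Oprd1, the delta receptor gene that binds enkephalins, had the lowest receptor mean over all 10 libraries, though not among lateral libraries, where Oprm1 was lower in 4 of 5. Its values also overlapped between regions. It was at 6.87, 10.6, 8.84, 1.06 and 5.27 TPM in lateral replicates 1 to 5 and at 7.01, 4.45, 3.47, 6.74 and 8.85 TPM in medial replicates 1 to 5. The highest and the lowest library were both lateral. The log2 fold change of -0.07 (95% interval -1.04 to 0.90, limma adjusted p = 0.958) turned to 0.10 under median-ratio scaling, 0.19 under quantile normalization and 0.34 without lateral replicate 4. The 4 receptor genes together made 45.8 ± 2.91 TPM (SD, n = 5) laterally and 59.5 ± 25.3 TPM (SD, n = 5) medially.

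**Figure D3:**
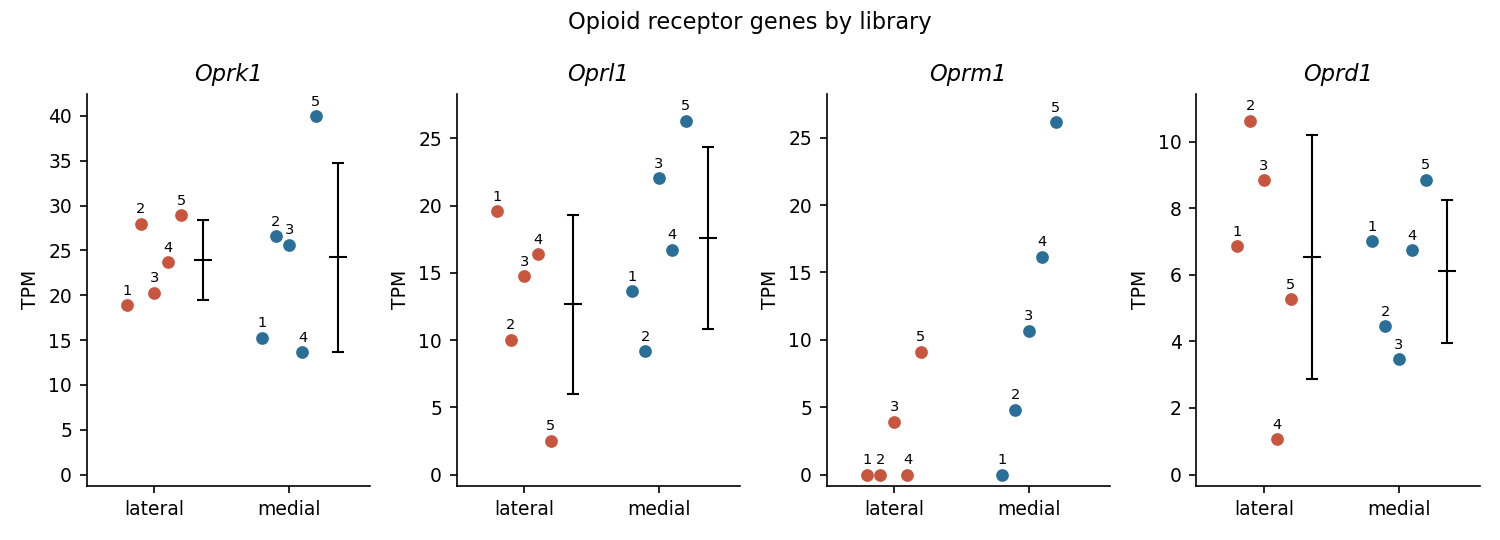
TPM of the 4 receptor genes in each library, numbered by replicate, in lateral (red) and medial (blue) shell, with the mean ± SD of 5 libraries beside the points except for Oprm1, which is listed at 0 in 4 libraries. Values of the regions overlap for each gene, and the 3 highest Oprm1 libraries are medial.

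**Figure D4:**
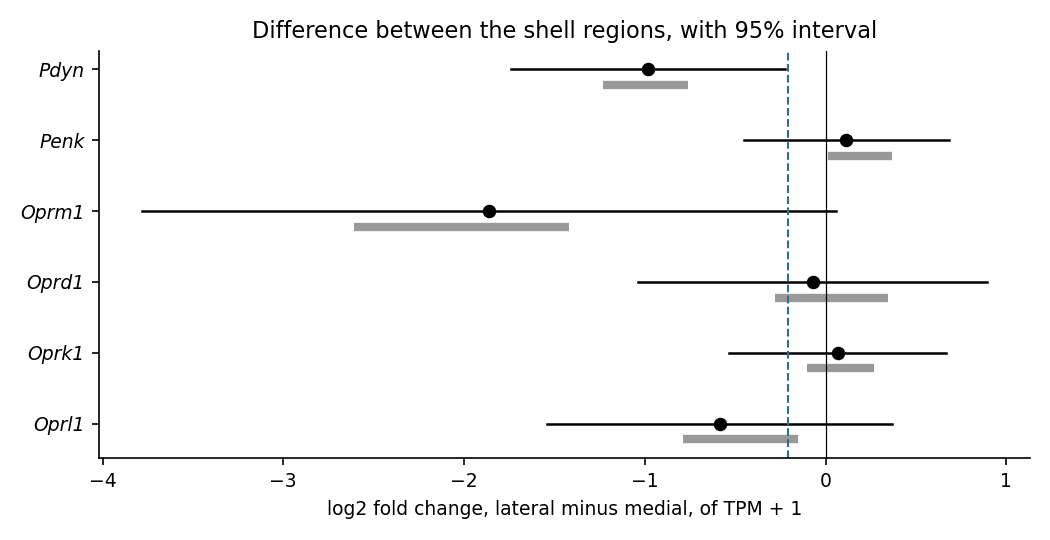
Log2 fold change of TPM + 1, lateral minus medial, of the 6 tested genes (points) with 95% limma intervals (black lines), and the range when each library is left out in turn (grey bars); the dashed line is the median of all tested genes, -0.21. Of the 6 intervals only that of Pdyn lies wholly below 0, before adjustment for the number of genes.

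Among named genes, those whose profile over the 10 libraries was most like each member were not opioid genes. They were taken from 9097 tested genes averaging 5 TPM or more by Pearson r of log2(TPM + 1). Genes with Gm-number, Rik, Ensembl or clone symbols and pseudogenes had been left out. Spearman rho, the correlation of ranks, is given after r. The choice was a description from many genes, with no test. For Pdyn they were Sf3b6, a splicing factor subunit gene (r = 0.979, rho = 0.964), Gpd1l (0.954, 0.891) and Vkorc1, a vitamin K enzyme gene (0.951, 0.964). For Penk they were Cxcl12, a chemokine gene (r = 0.916, rho = 0.733), Vps33a (0.886, 0.842) and Wdsub1 (0.883, 0.721). For Oprk1 they were Pitpnb (r = 0.954, rho = 0.964), Rbm8a (0.921, 0.879) and Gadd45gip1 (0.902, 0.903). For Oprm1 they were Ubr1 (r = 0.932, rho = 0.919), Prpf38a (0.920, 0.919) and Apex1 (0.912, 0.932). For Oprd1 they were Kcnip3 (r = 0.937, rho = 0.782), Entpd3 (0.911, 0.806) and Ralgapa1 (0.908, 0.758). Oprl1 was closest to Bin1 (r = 0.942, rho = 0.927), Rgs19 (0.934, 0.952) and Dctd (0.931, 0.745).

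Rgs19, a regulator of G-protein signalling, also lies beside Oprl1 in the genome. Rgs19 is at chromosome 2, 181688419 to 181693977, on the minus strand and Oprl1 at 181715016 to 181720985 on the plus strand, with 21038 bases and the gene Lkaaear1 between them. Rgs19 was at 20.6, 13.9, 13.0, 15.5 and 6.20 TPM in lateral replicates 1 to 5 and at 14.5, 9.94, 27.3, 15.9 and 23.1 TPM in medial replicates 1 to 5. As with Oprl1, its lowest library was lateral replicate 5 and its lowest medial library replicate 2, which are the libraries low in AY036118. After the mean of each region was removed, r was 0.925.

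Of the other genes of opioid signalling, 60 in 6 lists, 57 were in the table and 55 could be tested. Of these 2 passed, Rgs4 and Adcy1, both higher in lateral (3.64% beside 1.48% of all genes), and none passed as higher in medial. The lists were chosen with earlier results of these data known, so these shares are no test of opioid signalling. The median log2 fold change over the 55 was -0.07, with 24 higher and 31 lower in lateral. Of all tested genes 68.7% were lower in lateral, and the splits within each list are to be read beside that share. Rgs4, a regulator that speeds the switching off of inhibitory G proteins, was at 754, 695, 291, 494 and 399.8 TPM in lateral replicates 1 to 5 and at 124, 84.1, 113, 107 and 178 TPM in medial replicates 1 to 5. Its values did not overlap between regions (log2 fold change 2.07 ± 0.26 SE, limma adjusted p = 0.00244). Adcy1, an adenylyl cyclase that makes cyclic AMP, was at 14.8, 21.1, 18.0, 10.3 and 14.1 TPM in lateral replicates 1 to 5 and at 7.72, 3.11, 4.29, 6.73 and 5.72 TPM in medial replicates 1 to 5. Its values did not overlap either (log2 fold change 1.37 ± 0.29 SE, limma adjusted p = 0.0344). Its call was lost on leaving out lateral replicate 1, 2, 3 or 5 or medial replicate 2, 3, 4 or 5 (limma adjusted p from 0.0621 to 0.0823), with log2 fold changes of 1.22 to 1.44 in those fits. It was also lost with no filter on low values (limma adjusted p = 0.0516) and without both libraries low in AY036118 (0.147).

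The lists that handle the peptides themselves held no gene that passed. Of 8 genes that process precursors, 4 were higher and 4 lower in lateral, with a median log2 fold change of -0.09. Among them Cpe, the carboxypeptidase that trims basic residues, averaged 1027 ± 151 TPM laterally against 1237 ± 327 TPM medially (limma adjusted p = 0.582), and the aminopeptidase gene Rnpep was at 13.2 ± 4.10 and 18.2 ± 5.15 TPM (limma adjusted p = 0.448). Of 8 tested genes for peptide breakdown, 2 were higher and 6 lower in lateral, with a median of -0.11. Ece1, an endopeptidase, was at 22.3 ± 4.78 and 18.0 ± 3.09 TPM (limma adjusted p = 0.557), and Mme, the enkephalin-degrading neprilysin, had a log2 fold change of -0.75 (limma adjusted p = 0.675). Of the 5 related ligand and receptor genes, the opioid growth factor receptor gene Ogfr averaged 30.005 ± 11.03 and 20.5 ± 5.47 TPM (limma adjusted p = 0.367). Its relative Ogfrl1 was at 20.3 ± 4.25 and 29.3 ± 7.79 TPM (limma adjusted p = 0.351).

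Downstream of the receptors, the genes other than Rgs4 and Adcy1 did not pass. Of 12 G protein genes 5 were higher and 7 lower in lateral, with a median of -0.15, and Gnai1, an inhibitory alpha subunit, averaged 50.5 ± 13.5 TPM laterally against 84.4 ± 30.8 TPM medially (limma adjusted p = 0.304). The gamma subunit gene Gng3 was at 239 ± 24.1 and 316 ± 113 TPM (limma adjusted p = 0.464). Of 9 tested effector genes 1 passed, Adcy1. The main striatal cyclase gene Adcy5 was at 184 ± 35.6 and 131 ± 25.2 TPM (log2 fold change 0.49, limma adjusted p = 0.203). Of 13 genes for desensitization and regulation 1 passed, Rgs4, and the list median was 0.26. Arrb1, encoding beta-arrestin 1, which uncouples receptors from G proteins, was at 1.81, 4.83, 32.1, 0.785 and 25.6 TPM in lateral replicates 1 to 5 and from 26.9 to 51.7 TPM medially, a log2 fold change of -2.20 (limma adjusted p = 0.148). Lateral replicate 3 lay inside the medial range, replicate 5 just under it and the other 3 far under it.

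**Figure D5:**
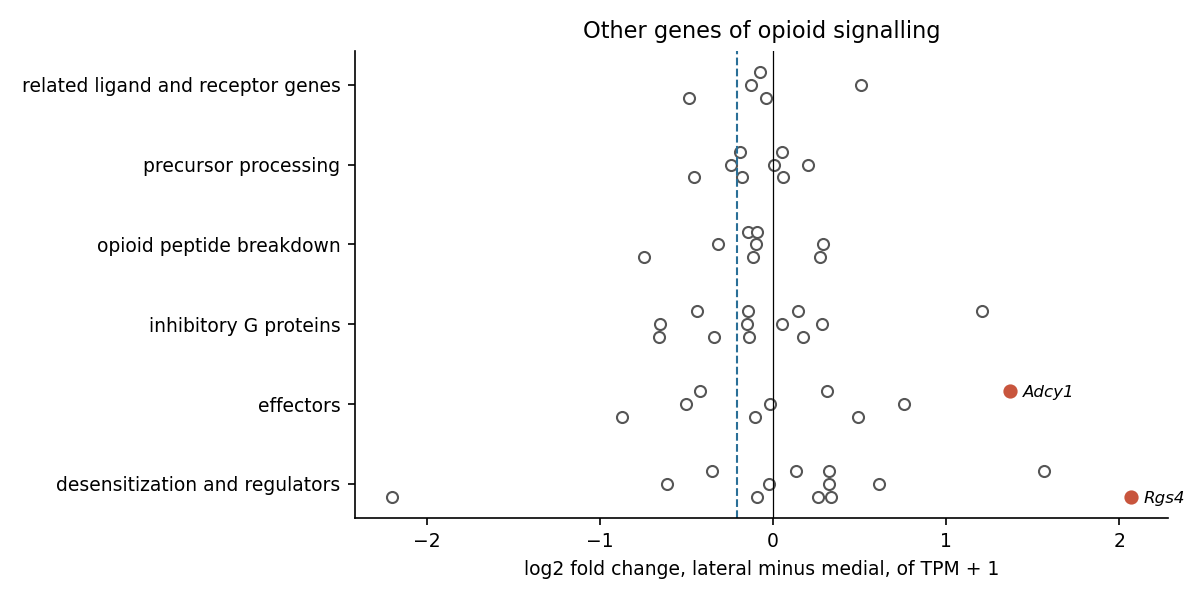
Log2 fold change of TPM + 1, lateral minus medial, of the 55 tested genes in 6 lists of opioid signalling, one point a gene, filled where the limma adjusted p is under 0.05; the dashed line is the median of all tested genes, -0.21. Rgs4 (2.07) and Adcy1 (1.37) are the filled points, both on the lateral side.

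The tissue label was checked against marker genes. Genes shared by spiny neurons summed to 1669 to 2589 TPM laterally and 1112 to 2000 TPM medially, and genes of Drd2 neurons to 174 to 613 and 201 to 631 TPM. The 3 excitatory neuron genes in the table, Slc17a6, Neurod6 and Nr4a2, together reached at most 3.78 TPM. Interneuron genes summed to 504 to 5677 TPM laterally and 29.5 to 1764 TPM medially with none of 8 passing. Of those 8, 7 were higher in lateral, with a median log2 fold change of 1.35. Oligodendrocyte genes summed to 219 to 667 and 71.3 to 311 TPM, also with none of 5 passing. All 5 were higher in lateral, with a median of 1.19 beside -0.21 for all genes. Astrocyte genes summed to 94.95 to 266 and 195 to 298 TPM, with none passing. Endothelial genes summed to 71.0 to 220 and 95.6 to 168 TPM, with none passing. Microglia genes summed to 207 to 333 TPM laterally and 102 to 226 TPM medially, and 2 of 6 passed as higher in lateral, beside 0.385% of all genes. Those were C1qa (limma adjusted p = 0.035) and Tmem119 (0.0381), whose calls were lost on leaving out any single lateral library or medial replicate 2, 4 or 5, with log2 fold changes of 0.94 to 1.14 and 1.34 to 1.64 beside 1.07 and 1.52. Without a mean-variance trend the limma adjusted p was 0.0958 and 0.0638. Without the libraries low in AY036118 the limma adjusted p was 0.137 for each. The part of these cell types in the opioid values was not tested.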

How the data were processed

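Expression was measured in 10 libraries, 5 of the lateral and 5 of the medial shell. The values are TPM made by the authors, 1 column per sample, and each column totals 1000000. Per the submitters' processing notes, the tools included featureCounts 1.6.3, StringTie 1.3.4, HISAT2 2.1.0 and fastp 0.20.0, with the build GRCm38 (mm10) and no roles or order stated. No source used here gives the annotation or the use of strand.

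From the TPM, log2(TPM + 1) was tested with limma 3.58.1 in R 4.3.3 (empirical Bayes, mean-variance trend) over genes at 1 TPM or more in at least 5 samples, with Benjamini-Hochberg adjustment over all of them. Fold changes on this scale understate the change of low genes. Exact two-sided permutation tests were run with SciPy 1.17.1. Coordinates and coding sequences came from GENCODE M21 (GRCm38), and receptor proteins were aligned with Biopython 1.88. No 2 libraries held identical values. The scripts were tested on simulated data.

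The genes named were the 7 members and the pathway genes that passed or, where fewer than 2 passed in a list, its 2 smallest p-values. Also named were the 3 genes most like each member at a mean of at least 5 TPM, unnamed genes and pseudogenes left out. Of the marker and compartment lists, genes that passed and the first 2 could be named. Genes named outside this rule, after their values were seen, were Pomc, Neurod6, Nr4a2, Ipcef1, A830012C17Rik and AY036118. Gm10945 and Lkaaear1 were named only for their place in the genome. The ratios to Drd1 and Drd2 and the count of striosome genes without the members were also added after the data were seen. The other alternatives changed the pseudocount, filter, scaling, variance model, replicate block or libraries used. The members and lists were chosen with earlier results of these data known, so the share of a list that passed is only a description. Listed genes missing from the table were not analysed here.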

Additional observations from a re-analysis of the deposited data

Results flagged for a closer look

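In 4 of 22 groups of 5 libraries, each holding a member's TPM or a ratio, 1 library stood apart from the other 4 by Dixon's criterion; chance flags about 1 group in 20. Penk in lateral replicate 1 was at 1207 TPM, and its gap to the next library was 0.736 of the lateral range. The ratio of Pdyn to Drd1 in that library was 3.13, with a gap of 0.720 of the range. Pnoc stood apart in lateral replicate 1, at 1.63 TPM, and in medial replicate 5, at 2.49 TPM, among libraries mostly listed at 0. Without lateral replicate 1 the log2 fold change of Pdyn was -1.23 (limma adjusted p = 0.1003), that of Penk was 0.37 (limma adjusted p = 0.437), and the lateral mean of the Penk to Pdyn ratio was 16.6 in place of 13.8. The cause of these values was not tested.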

How the results depend on the processing

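No member passed under any of 22 alternative fits (limma adjusted p from 0.1002 to 0.999), though Oprm1 gave no value in 2 of them, a filter of 5 TPM and the fit without the AY036118-low libraries. Pdyn stayed negative, from -1.23 to -0.76, Oprm1 from -3.18 to -1.002 and Oprl1 from -0.79 to -0.15. The sign changed for Penk under quantile normalization (-0.064, range without 1 library 0.01 to 0.37). For Oprd1 it changed with a pseudocount of 5 (0.0063), quantile normalization (0.19), median-ratio scaling (0.10) and without lateral replicate 4 (0.34) or medial replicate 5 (0.06), with -0.28 to 0.34 without 1 library. For Oprk1 it changed without lateral replicate 5 (-0.0021), medial replicate 1 (-0.06) or medial replicate 4 (-0.10), with -0.10 to 0.27 without 1 library. Rescaling without mitochondrial genes, which take 23.5% to 35.3% of a library, raised the mean of each of the 7 members in both regions, by 1.31 to 1.54 times. By more than 1 SD it moved Penk to 3768 (lateral) and 3186 TPM (medial), lateral Oprk1 to 35.3 TPM and medial Oprd1 to 8.46 TPM.

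Genes higher in lateral numbered 34 without a mean-variance trend, 12 without the AY036118-low libraries and 23 to 69 without 1 library, against 60. Genes higher in medial numbered 107 with a pseudocount of 0.1, 100 under quantile normalization, 82 under median-ratio scaling, 111 without the trend, 31 without the AY036118-low libraries and 56 to 188 without 1 library, against 171. Both counts moved by over 1.5 times on leaving out any of lateral replicates 1, 4 and 5 and medial replicates 2 to 5, and the lateral count also on leaving out lateral replicate 2. The causes were not tested. A replicate block gave 19 and 45 genes and no member, and Adcy1, C1qa and Tmem119 did not pass in it (limma adjusted p = 0.116, 0.0598 and 0.0977). Deviations from the region means, over all tested genes, correlated at -0.0534 to 0.0417 between same-numbered libraries. That gave no sign of pairing by number. It cannot exclude pairing, since an effect of the animal on few genes would leave r near 0. Depth is unknown, which limits low genes such as Pnoc and Oprm1 most. Oprm1 averaged 7.08 TPM and was listed at 0 in 4 libraries. Among 3483 genes averaging 5 to 10 TPM, 45 were listed at 0 in at least 4 libraries. The cause of the Oprm1 zeros was not tested.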
